A study of Mus musculus with 30 samples.

Results

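The 9 genes described here encode transcription factors of the Nr4a family (Nr4a1, Nr4a2 and Nr4a3) and of the Klf family (Klf2, Klf4, Klf5, Klf6, Klf10 and Klf15). Every non-control probe on the array that carried one of these gene names was taken, which gave 10 of the 55681 probes, printed on 19 of 59305 spots. Nr4a2 had 2 probes, the other genes had 1 each, and all 9 genes passed the filter on low signal that left 23335 genes for testing. The probes were read in 30 fibres, each isolated alone from the extensor digitorum longus muscle of male CD1 mice, in 8 groups. The extensor digitorum longus lies in the hindlimb and is made mostly of fast fibres.

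Adeno-associated virus (AAV) had been injected into the muscle at 8 weeks of age, and fibres were taken 7 or 14 days later. AAVMCU fibres received the coding sequence of MCU, the pore subunit of the mitochondrial calcium uniporter (3 fibres at day 7 and 4 at day 14). AAVshMCU fibres received a vector that silences MCU (3 fibres at day 7 and 4 at day 14). AAVshLuc fibres were the virus control (4 fibres on each day), and the labels name a short hairpin against luciferase in the titles but an AAV without insert elsewhere. Wild type (WT) fibres came from muscles without virus (4 fibres on each day). All injected fibres were picked by the green fluorescence of ZsGreen, and the AAVMCU and AAVshMCU fibres were kept only after a quantitative PCR test had shown the change of MCU, so the level of Mcu on the array is not an independent outcome. The RNA of each fibre was amplified exponentially before labelling, and the mice behind the fibres are not named, so that the p-values below cover only fibre-to-fibre spread, and some fibres may come from 1 mouse.

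Nr4a receptors are nuclear receptors that act without a known required hormone, and their transcripts are made within a short time of a stimulus such as contraction, calcium entry or beta-adrenergic signalling. In skeletal muscle they are known as regulators of glucose, glycogen and lipid genes. Klf proteins carry 3 zinc fingers of the C2H2 type that bind GC-rich and CACCC sequences. Klf2, Klf4, Klf5, Klf6 and Klf10 are known as genes that answer growth factors, injury or mechanical stress, and Klf10 was first described as an early gene of TGF-beta signalling. Klf15 differs in kind, since it is induced by glucocorticoids and fasting and drives lipid and amino acid use in muscle.

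The probes for Nr4a2, Nr4a3 and Klf5 are shown because Nr4a2 is the only member with a second probe, and Nr4a3 and Klf5 each differed by -2.50 between AAVshMCU and AAVshLuc fibres at day 7. Positions are those of the array files in mm9, and each sequence is given 5′ to 3′ on the strand of the gene. The Nr4a2 probe lies at chr2:56960699-56960758 on the minus strand. The Nr4a3 probe aligned over chr4:48080690-48083876 on the plus strand and the Klf5 probe over chr14:99702656-99712388 on the plus strand, and as both are 60 bases long they bridge an intron and report spliced RNA. Capitals in the Klf5 probe mark 15 bases that code for the linker between neighbouring C2H2 zinc fingers, a stretch that Klf proteins share.
Nr4a2: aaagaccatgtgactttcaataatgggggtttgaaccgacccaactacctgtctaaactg
Nr4a3: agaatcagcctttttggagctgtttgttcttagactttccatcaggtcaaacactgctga
Klf5: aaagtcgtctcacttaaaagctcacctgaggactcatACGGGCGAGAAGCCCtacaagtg

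The promoters of the Nr4a genes are shown because cyclic AMP and calcium signals reach many early genes through CREB, a factor that binds the half-site TGACG. The 250 bases before the RefSeq start were searched on both strands in the GRCm38.p6 table, which held 7 of the 9 genes. Capitals mark TGACG or its complement CGTCA. Nr4a1, Nr4a2 and Nr4a3 each held 4 such half-sites, a number reached by 45 of 32851 promoters (0.137%). The promoter of Klf6 is shown beside them because it held 0, while Klf15 held 2 and Klf2 and Klf4 held 1 each. At least 1 half-site was present in 17.8% of all promoters. Neither the full site TGACGTCA (1.55% of promoters) nor the Nr4a monomer site AAAGGTCA (1.34%) nor a CArG box (1.47%) was found in any of the 7, and CACCC was found in 4 of 7, against 52.0% of all promoters. These are matches of letters and not measured binding sites. The Nr4a1 promoter lies at chr15:101266596-101266845 on the plus strand, that of Nr4a2 at chr2:57124004-57124253 on the minus strand, that of Nr4a3 at chr4:48045055-48045304 on the plus strand and that of Klf6 at chr13:5861239-5861488 on the plus strand.
Nr4a1: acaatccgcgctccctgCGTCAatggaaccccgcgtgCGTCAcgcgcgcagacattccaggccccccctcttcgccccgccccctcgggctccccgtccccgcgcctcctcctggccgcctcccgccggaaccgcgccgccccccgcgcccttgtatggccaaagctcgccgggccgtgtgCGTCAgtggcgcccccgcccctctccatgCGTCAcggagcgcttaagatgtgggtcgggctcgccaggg
Nr4a2: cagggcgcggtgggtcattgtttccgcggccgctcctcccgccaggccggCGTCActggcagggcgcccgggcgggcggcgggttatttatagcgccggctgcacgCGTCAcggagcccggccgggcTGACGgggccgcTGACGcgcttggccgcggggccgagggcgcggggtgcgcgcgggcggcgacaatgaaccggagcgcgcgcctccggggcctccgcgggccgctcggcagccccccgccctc
Nr4a3: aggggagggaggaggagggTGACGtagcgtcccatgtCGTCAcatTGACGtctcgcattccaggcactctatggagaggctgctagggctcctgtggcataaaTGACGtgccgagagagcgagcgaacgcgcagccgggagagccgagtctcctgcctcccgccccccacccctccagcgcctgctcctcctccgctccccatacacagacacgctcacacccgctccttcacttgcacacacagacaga
Klf6: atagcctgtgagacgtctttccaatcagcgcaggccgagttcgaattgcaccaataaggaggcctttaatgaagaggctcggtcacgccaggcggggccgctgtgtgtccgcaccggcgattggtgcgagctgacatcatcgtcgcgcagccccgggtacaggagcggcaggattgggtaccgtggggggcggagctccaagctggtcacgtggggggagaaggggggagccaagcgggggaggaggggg

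Levels are log2 signals relative to the 75th percentile of the same array, so that 0 is the level of that percentile and 1 unit is a doubling; levels of different probes are not compared. The 75th percentile itself was 83.2 to 138 intensity units and each array had between 49.4% and 59.5% of its probes above background. Mcu averaged 3.27 ± 0.28 in AAVMCU fibres and 2.67 ± 0.20 in WT fibres at day 7 (SD, n = 3 and 4), and 6.36 ± 0.35 in AAVMCU and 2.46 ± 0.27 in WT fibres at day 14 (n = 4 each). It averaged 0.49 ± 0.97 in AAVshMCU fibres and 2.57 ± 0.34 in AAVshLuc fibres at day 7 (n = 3 and 4), and -0.52 ± 1.10 in AAVshMCU and 2.55 ± 0.22 in AAVshLuc fibres at day 14 (n = 4 each). Each day's AAVMCU and WT fibres shared 1 slide and each day's AAVshMCU and AAVshLuc fibres another, so virus control against wild type, and day 14 against day 7, cannot be told apart from slide. On every slide the AAVMCU or AAVshMCU fibres lay in array columns 1 and 2. The WT or AAVshLuc fibres lay in columns 3 and 4. Array column thus cannot be told apart from treatment within a slide, and its part was not tested. Each fibre carried 9 or 10 of 10 muscle fibre markers above background, beside 2 to 8 of 8 endothelial, 4 to 6 of 7 macrophage, 1 to 5 of 6 fibroblast, 2 to 5 of 5 smooth muscle and mural and 1 or 2 of 4 satellite cell markers. Some of these were above background on all 30 arrays (endothelial Kdr, macrophage Csf1r, Itgam, Ptprc and Cd68, fibroblast Col1a2, smooth muscle Tagln and Myh11, and satellite cell Cdh15). Endothelial Pecam1, Cdh5, Tek and Tie1 were above background on 5, 2, 4 and 5 arrays, macrophage Adgre1 and Mrc1 on 8 and 0, Pax7 on 1 and Pdgfra on 0. A pair of fibres stood apart. AAVMCU day 7 replicate 1 was the highest of its group in 8 of the 9 members and the lowest in Klf15. AAVshMCU day 14 replicate 3 had a Myh4 level of 0.37, against 5.92 to 7.97 in the other 29 fibres. Its Myh2 level was 6.49, against -5.43 to -0.90, so by its myosins it was a fibre of another fast type. AAVshMCU day 14 replicate 1 had the next lowest Myh4, 5.92, with a Myh1 level of 7.91 and a Myh2 level of -0.90. Myh1 ran from 4.61 to 7.91 in AAVshMCU and from -1.10 to 4.76 in AAVshLuc fibres at day 14. At day 7 it ran from 2.47 to 7.57 and from 1.85 to 6.17. The part of fibre type in the differences of the 9 genes was not tested.

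**Figure D1:**
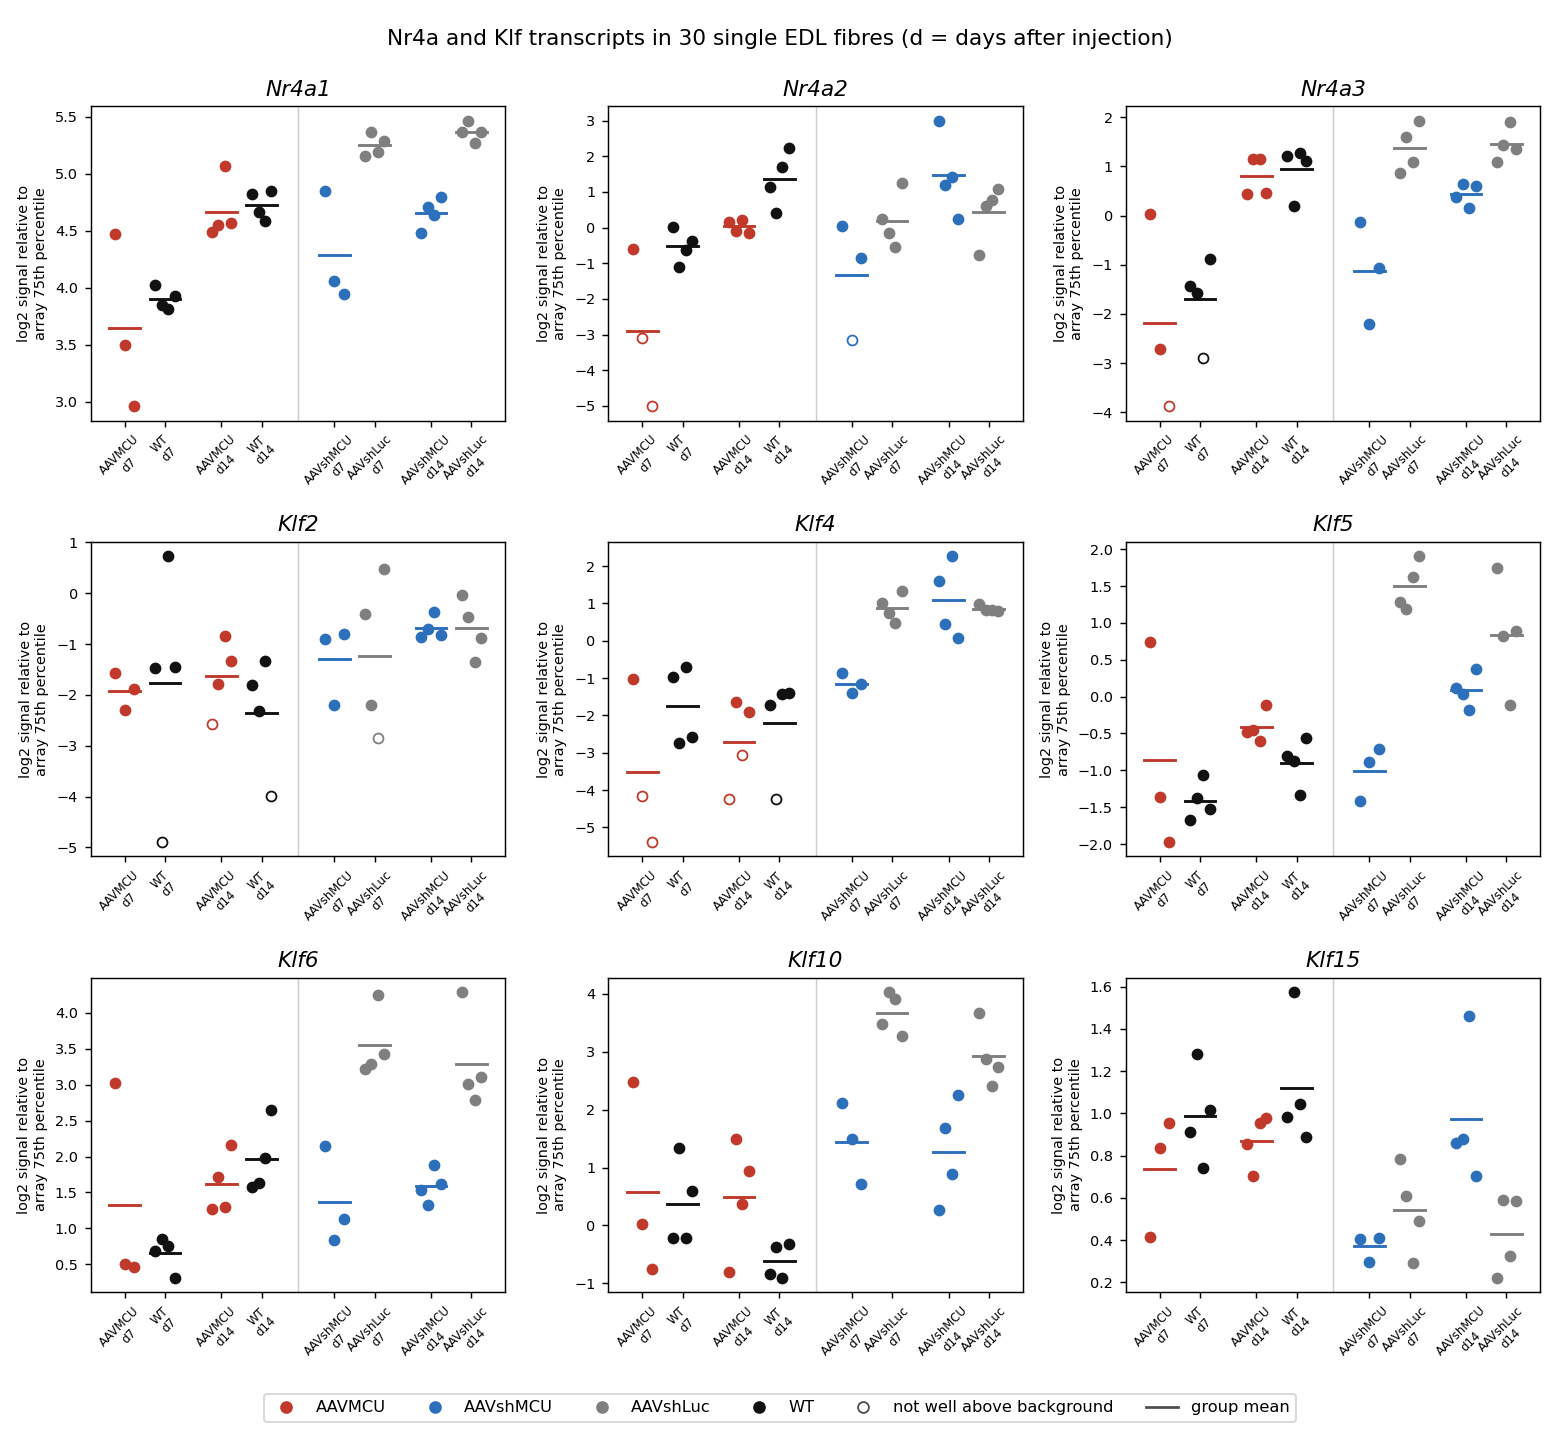
Level on the log2 scale, with the 75th percentile of the array at 0 (vertical axes), of each of the 9 genes in each of 30 fibres, by group and day (horizontal axes); points are fibres, open points are not well above background, and lines are group means. The AAVshLuc fibres lie highest for Nr4a1, Klf6 and Klf10 on both days, with group means of 5.25 and 5.36, 3.55 and 3.29, and 3.68 and 2.92.

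In AAVshMCU fibres 5 of the 9 genes were lower than in AAVshLuc fibres over the mean of both days: Nr4a1, Nr4a3, Klf5, Klf6 and Klf10 (limma, Benjamini-Hochberg adjusted p below 0.05 over all genes). The median of the 9 differences was -0.90, against 0.04 over all 23335 genes, of which 14.1% passed the same test in either direction and 6.11% were lower. The same 5 genes were lower at day 7, where 13.5% of all genes passed and 5.18% were lower. Only Klf6 was lower at day 14, where 3.46% of all genes passed and 1.92% were lower. No gene of the 9 was higher in AAVshMCU fibres on either day or over their mean.

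Nr4a1, an early gene of contraction and beta-adrenergic signalling in muscle, had levels of 4.85, 4.06 and 3.95 in the AAVshMCU fibres at day 7, against 5.15, 5.37, 5.19 and 5.28 in the AAVshLuc fibres. At day 14 the AAVshMCU fibres had 4.48, 4.71, 4.64 and 4.79 and the AAVshLuc fibres 5.36, 5.46, 5.26 and 5.37. On both days every silenced fibre lay below every control fibre. The difference was -0.96 ± 0.23 at day 7 (SE, adjusted p = 0.00734) and -0.71 ± 0.21 at day 14 (adjusted p = 0.0636), and over both days -0.84 ± 0.16 (adjusted p = 0.00112), a signal 1.79-fold lower. The day 7 call was lost with only the compared groups in the model (adjusted p = 0.0704).

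Nr4a3, the Nr4a receptor whose overexpression in mouse muscle is known to raise oxidative capacity, showed the wider gap. Its levels were -0.13, -2.21 and -1.06 in the AAVshMCU fibres at day 7, against 0.86, 1.59, 1.09 and 1.93 in the AAVshLuc fibres. The day 14 levels were 0.38, 0.64, 0.15 and 0.61 in the AAVshMCU fibres, against 1.09, 1.43, 1.91 and 1.36 in the AAVshLuc fibres. The groups were separate on both days. The day 7 difference was -2.50 ± 0.59 (SE, adjusted p = 0.00705, 5.65-fold lower) and the difference over both days -1.75 ± 0.41 (adjusted p = 0.00573). The day 14 means of 0.44 in AAVshMCU and 1.45 in AAVshLuc fibres had a difference with a 95% interval of -2.14 to 0.13 (adjusted p = 0.338). With the normexp background correction, another way of removing background that compresses dim signals, the difference was -1.52 at day 7 (adjusted p = 0.000703) and -1.15 over both days (adjusted p = 0.000225).

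Nr4a2, known best as a factor of dopamine neurons, did not pass the test. Its brighter probe had levels of 0.05, -3.15 and -0.86 in the AAVshMCU fibres at day 7, the second not well above background, against 0.23, -0.17, -0.56 and 1.25 in the AAVshLuc fibres. In the day 14 groups the AAVshMCU fibres had 3.00, 1.19, 1.43 and 0.25, against -0.77, 0.60, 0.77 and 1.09 in the AAVshLuc fibres. The groups overlapped on both days and the sign of the difference changed, from -1.51 at day 7 (adjusted p = 0.200) to 1.04 at day 14 (adjusted p = 0.458). Over both days it was -0.23 with a 95% interval of -1.33 to 0.86. The second Nr4a2 probe, above background on all 30 arrays, gave 0.18 with an interval of -0.41 to 0.77.

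Klf6, a growth-regulating factor induced by tissue injury, was the gene with the most repeated difference. The AAVshMCU fibres had levels of 2.14, 0.84 and 1.13 at day 7, against 3.22, 3.29, 4.24 and 3.43 in the AAVshLuc fibres. At day 14 they had 1.53, 1.32, 1.88 and 1.62, against 4.29, 3.00, 2.78 and 3.10 in the AAVshLuc fibres. All silenced fibres of both days lay below all control fibres of both days. The Klf6 difference was -2.17 ± 0.46 at day 7 (SE, adjusted p = 0.00316, 4.51-fold lower) and -1.71 ± 0.43 at day 14 (adjusted p = 0.0246, 3.26-fold lower). The day 14 call was lost without AAVshLuc day 14 replicate 1 (-1.37, adjusted p = 0.101) or AAVshMCU day 14 replicate 2 (-1.62, adjusted p = 0.0590), and with only the compared groups in the model (adjusted p = 0.0652), array weights (adjusted p = 0.0608) or a replicate block (adjusted p = 0.0548).

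Klf10, the TGF-beta early gene, had levels of 2.12, 1.49 and 0.72 in AAVshMCU fibres at day 7, against 3.49, 4.03, 3.92 and 3.27 in AAVshLuc fibres. The day 14 levels were 0.26, 1.68, 0.89 and 2.25 in AAVshMCU fibres, against 3.67, 2.87, 2.41 and 2.74 in AAVshLuc fibres. Again all silenced fibres lay below all control fibres, although the silenced group spread over 1.99 units at day 14. The difference was -2.23 ± 0.60 at day 7 (SE, adjusted p = 0.0150), -1.65 ± 0.55 at day 14 (adjusted p = 0.0985) and -1.94 ± 0.41 over both days (adjusted p = 0.00279). The day 7 call was lost with array weights (-2.16, adjusted p = 0.0512).

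Klf5, which in mouse muscle takes part in myogenic differentiation and lipid metabolism, had levels of -1.41, -0.89 and -0.71 in the AAVshMCU fibres at day 7, against 1.28, 1.19, 1.62 and 1.90 in the AAVshLuc fibres. The AAVshMCU fibres of day 14 had 0.12, 0.04, -0.18 and 0.37, against 1.75, 0.82, -0.12 and 0.89 in the AAVshLuc fibres. The groups were far apart at day 7 and overlapped at day 14 through a single control fibre. The difference was -2.50 ± 0.42 at day 7 (SE, adjusted p = 0.000397, 5.66-fold lower), -0.75 ± 0.39 at day 14 (adjusted p = 0.302) and -1.63 ± 0.28 over both days (adjusted p = 0.000592). With normexp it was -1.64 at day 7 (adjusted p = 0.000115) and -1.09 over both days (adjusted p = 0.000129).

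Of these 5 genes, 4 had silenced fibres below control fibres on both days: Nr4a1, Nr4a3, Klf6 and Klf10. Over all genes 1.22% lay so. Without AAVshMCU day 7 replicate 3 the day 7 count fell to 3, as Nr4a1 (adjusted p = 0.0553) and Klf10 (adjusted p = 0.0845) no longer passed. Without AAVshMCU day 7 replicate 2 it was 4, as Nr4a3 had an adjusted p of 0.0571. The count over both days was 5 whichever single fibre was left out, the Myh2-rich fibre included.

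Klf4, a stress-induced factor that can also drive myogenic fusion, divided the days. Its levels were -0.87, -1.41 and -1.15 in AAVshMCU fibres at day 7, against 1.00, 0.73, 0.47 and 1.32 in AAVshLuc fibres. At day 14 the AAVshMCU fibres had 1.59, 0.45, 2.26 and 0.06, against 0.98, 0.82, 0.82 and 0.80 in the AAVshLuc fibres. The groups did not overlap at day 7, when 8.21% of all genes lay wholly lower in AAVshMCU fibres, and at day 14 the silenced fibres lay on either side of a narrow control group. The day 7 difference of -2.03 ± 0.80 (SE) had an adjusted p of 0.0907. With the normexp background correction it was -1.29 with an adjusted p of 0.00659, and it also passed with dim spots set to a floor (adjusted p = 0.0149) or only the compared groups in the model (adjusted p = 0.00796).

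Klf2, known from endothelium and quiescent lymphocytes, was dim and scattered. Its levels were -0.91, -2.19 and -0.81 in AAVshMCU fibres at day 7, against -0.40, -2.20, -2.85 and 0.49 in AAVshLuc fibres. At day 14 they were -0.87, -0.70, -0.37 and -0.82 in AAVshMCU fibres, against -0.03, -0.47, -1.35 and -0.89 in AAVshLuc fibres. The groups overlapped on both days, and the difference over both days was -0.03 with a 95% interval of -1.25 to 1.18, so that neither direction was set apart.

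Klf15, the glucocorticoid-induced metabolic regulator, did not pass the test. Its levels were 0.41, 0.30 and 0.41 in the AAVshMCU fibres at day 7, against 0.78, 0.61, 0.29 and 0.49 in the AAVshLuc fibres. At day 14 the AAVshMCU fibres had 0.86, 0.88, 1.46 and 0.70, against 0.22, 0.59, 0.32 and 0.59 in the AAVshLuc fibres. The groups overlapped at day 7 and every silenced fibre lay above every control fibre at day 14, a pattern found in 4.28% of all genes. The day 14 difference was 0.55 ± 0.17 (SE, adjusted p = 0.0735), and without the Myh2-rich replicate 3, the highest of the group, it was 0.38 (adjusted p = 0.265). It passed as higher with a percentile from probes detected on all arrays (0.63, adjusted p = 0.0333). The same held without AAVshMCU day 14 replicate 4 (0.64, adjusted p = 0.0436).

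The day 14 difference minus the day 7 difference between AAVshMCU and AAVshLuc fibres was positive for all 9 genes, but none passed the test, against 4.13% of all genes. By the unadjusted p 4 genes were below 0.05, and the share of all genes below it was not counted. Klf5 came nearest at 1.75 ± 0.57 (SE, adjusted p = 0.0818), followed by Klf15 at 0.72 ± 0.25 (adjusted p = 0.107), Nr4a2 at 2.56 ± 1.06 (adjusted p = 0.186) and Klf4 at 2.26 ± 1.09 (adjusted p = 0.259). The 95% interval for Klf6 was -0.83 to 1.76 and that for Nr4a1 -0.39 to 0.90, so for these genes neither a smaller nor a like difference at day 14 was set apart.

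**Figure D2:**
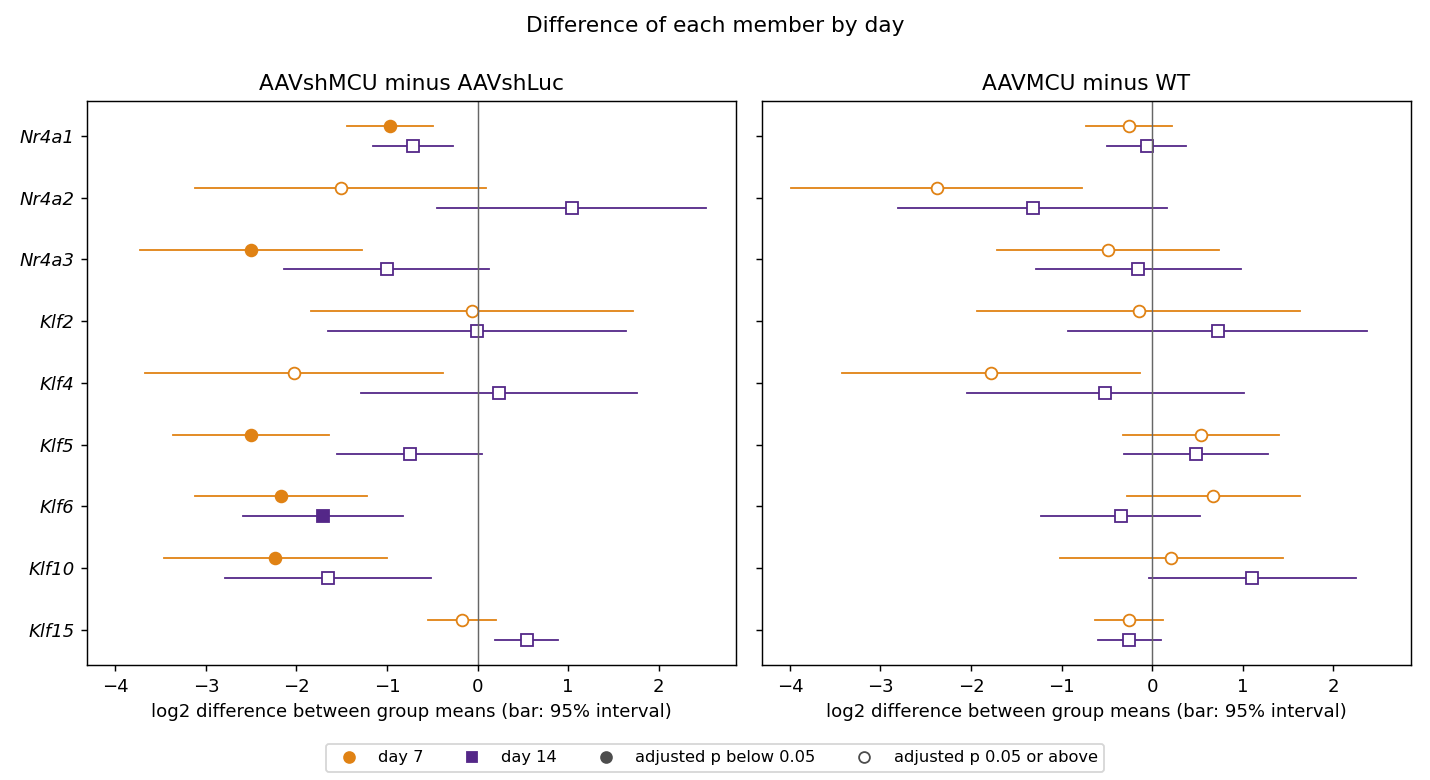
Difference between group means on the log2 scale (horizontal axes) for each gene (vertical axis), AAVshMCU minus AAVshLuc on the left and AAVMCU minus WT on the right; circles are day 7, squares day 14, bars 95% intervals, and filled symbols have an adjusted p below 0.05. Filled symbols lie on the left only: 5 at day 7 and 1, Klf6, at day 14.

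In AAVMCU fibres none of the 9 genes passed the test against WT fibres on either day or over their mean, where 0.574% (day 7), 0.429% (day 14) and 1.13% (mean) of all genes did (limma). WT fibres had no virus and no injection, and were not picked by ZsGreen. The MCU insert thus cannot be told apart here from virus, injection and picking by fluorescence. By the unadjusted p, 2 genes were below 0.05 at day 7 and over the mean, Nr4a2 and Klf4, and 0 at day 14. How many of all genes lay below that unadjusted p was not counted. The change of the difference between days also called 0, against 0.201% of all genes, with 0 at the unadjusted p.

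Nr4a2 had levels of -0.59, -3.10 and -5.02 in AAVMCU fibres at day 7, replicates 2 and 3 not well above background, against 0.00, -1.10, -0.62 and -0.38 in WT fibres. At day 14 the AAVMCU fibres had 0.16, -0.09, 0.22 and -0.14, against 1.13, 0.39, 1.69 and 2.22 in the WT fibres. All overexpressing fibres of day 14 lay below the WT fibres, as did 4.36% of all genes, and at day 7 replicate 1 lay within the WT range. The difference was -2.38 ± 0.78 at day 7 (SE, adjusted p = 0.410), -1.32 ± 0.72 at day 14 (adjusted p = 0.506) and -1.85 ± 0.53 over both days (adjusted p = 0.0926). Without AAVMCU day 7 replicate 1 the difference over both days was -2.43 (adjusted p = 0.00921), and with array weights it was -1.98 (adjusted p = 0.00529). With normexp it was -0.87 over both days (adjusted p = 0.0919) and -0.69 at day 7 (adjusted p = 0.906), and with the mean of both probes -1.24 over both days (adjusted p = 0.125).

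The second Nr4a2 probe, which kept a signal above background in every fibre, gave smaller values. It read -0.91, -1.57 and -1.45 in AAVMCU fibres at day 7, against -1.20, -1.24, -0.75 and -0.80 in WT fibres. At day 14 it read -0.38, -0.66, -0.73 and -0.72 in AAVMCU fibres, against -0.05, -0.75, 0.89 and 1.28 in WT fibres. The groups overlapped on both days by this probe, and the difference over both days was -0.64 ± 0.29 (SE, adjusted p = 0.340 over all probes). Both probes had the same sign, and neither passed the test.

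Klf4 had levels of -1.02, -4.17 and -5.39 in AAVMCU fibres at day 7, against -0.97, -2.74, -0.71 and -2.57 in WT fibres. At day 14 it had -4.24, -1.65, -3.06 and -1.91 in AAVMCU fibres, against -1.71, -4.24, -1.44 and -1.40 in WT fibres. It was above background in 1 of 3 and 2 of 4 AAVMCU fibres on these days, and in 4 of 4 and 3 of 4 WT fibres, and the groups overlapped. The difference over both days was -1.15 ± 0.55 (SE, adjusted p = 0.366). At day 7 it was -1.78, and -3.04 without AAVMCU day 7 replicate 1 (adjusted p = 0.0781).

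Nr4a1 and Nr4a3 did not differ detectably in AAVMCU fibres. Nr4a1 had 4.47, 3.50 and 2.96 in AAVMCU fibres at day 7, against 4.02, 3.84, 3.81 and 3.92 in WT fibres. The day 14 levels were 4.48, 4.55, 5.06 and 4.57 in AAVMCU fibres, against 4.82, 4.66, 4.58 and 4.85 in WT fibres. The WT fibres spread less than the AAVMCU fibres at day 7, and the 95% interval of the difference over both days was -0.48 to 0.16. For Nr4a3 that interval was -1.15 to 0.52. The day 7 Nr4a3 levels were 0.03, -2.71 and -3.88 in AAVMCU fibres, against -1.44, -1.58, -2.90 and -0.89 in WT fibres. Replicate 3 of each group was not well above background. Without AAVMCU day 7 replicate 1 the Nr4a1 difference at day 7 went from -0.26 to -0.67 (adjusted p = 0.247). That of Nr4a3 went from -0.49 to -1.59 (adjusted p = 0.336).

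Klf5, Klf6 and Klf10 at day 7 rested on replicate 1 of the AAVMCU group. Klf6 had 3.02 in that fibre and 0.50 and 0.46 in the other AAVMCU fibres, against 0.68, 0.85, 0.75 and 0.31 in WT fibres. Klf10 had 2.48 there and 0.02 and -0.74 in the other AAVMCU fibres, against -0.22, 1.35, -0.22 and 0.59 in WT fibres. The day 7 differences were 0.54 for Klf5, 0.68 for Klf6 and 0.21 for Klf10, and without that fibre they were -0.26, -0.17 and -0.74. At day 14 Klf10 was 1.11 ± 0.55 higher in AAVMCU fibres (SE, adjusted p = 0.455), with overlapping groups. Klf2 gave -0.15 and 0.72 on the 2 days and Klf15 -0.25 on each, all within overlapping groups.

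AAVshLuc fibres set against WT fibres also differed in most of the 9 genes, with the limit that these groups lie on different slides scanned on different days. Over both days 6 genes were higher in AAVshLuc fibres and 1 was lower, where 27.8% of all genes passed, 10.3% higher and 17.5% lower. Klf10 was 10.7-fold higher (3.42 ± 0.39, SE), Klf4 7.16-fold (2.84 ± 0.52), Klf5 4.99-fold (2.32 ± 0.27), Klf6 4.34-fold (2.12 ± 0.30), Nr4a3 3.45-fold (1.78 ± 0.39) and Nr4a1 1.99-fold (0.99 ± 0.15), with adjusted p-values between 1.19e-06 and 0.00133. With normexp these calls held, but the log2 difference was 1.62 for Klf4, 1.50 for Klf5 and 1.13 for Nr4a3. Klf15 was lower, with a difference of -0.57 ± 0.12 (adjusted p = 0.000987). Nr4a2 (-0.11) and Klf2 (1.11, adjusted p = 0.150) did not pass.

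By fibre, Klf10 ran from 2.41 to 4.03 in the 8 AAVshLuc fibres, against -0.91 to 1.35 in the 8 WT fibres. Klf4 ran from 0.47 to 1.32 in AAVshLuc fibres, against -4.24 to -0.71 in WT fibres. Klf6 ran from 2.78 to 4.29 in AAVshLuc fibres, against 0.31 to 2.65 in WT fibres. Klf5 ran from -0.12 to 1.90 in AAVshLuc fibres, against -1.67 to -0.56 in WT fibres. Nr4a1 ran from 5.15 to 5.46 in AAVshLuc fibres, against 3.81 to 4.85 in WT fibres. These 5 genes were separate over all 8 fibres a group, where 2.32% of all genes lay higher in AAVshLuc fibres without overlap within each day, and Nr4a3 was separate at day 7 but not at day 14, when its difference was 0.50 (adjusted p = 0.591). At day 7 alone 6 genes were higher (17.4% of all genes passed, 6.43% higher) and at day 14 alone 5 were higher and 1 lower (16% passed, 5.76% higher and 10.2% lower).

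AAVshMCU fibres were set against WT fibres as well, again across slides. Over both days Klf4 (1.95, adjusted p = 0.0193) and Klf10 (1.47, adjusted p = 0.0178) were higher and Klf15 (-0.38, adjusted p = 0.0437) was lower, where 13% of all genes passed, 4.98% higher and 8.04% lower. At day 7 alone 1 gene was lower and 0 higher, where 1196 of 23335 genes were lower. At day 14 alone 2 were higher and 0 lower, where 790 of 23335 were higher. With single fibres left out, Klf15 passed in 25 of 30 fits at day 7 and 0 at day 14. Klf4 passed in 0 and 30, and Klf10 in 0 and 26. Nr4a1 differed by 0.16 with a 95% interval of -0.17 to 0.48, Nr4a3 by 0.03 (-0.80 to 0.87) and Klf6 by 0.18 (-0.47 to 0.82). AAVshLuc fibres enter every AAVshMCU minus AAVshLuc value, so the lower values of AAVshMCU fibres and the higher values of AAVshLuc fibres share the same 8 arrays and are not separate results. The Klf15 call was lost with median scaling (-0.34, adjusted p = 0.102), array weights (adjusted p = 0.0572) and only the compared groups in the model (adjusted p = 0.107), and with any of 12 of the 30 single fibres left out (adjusted p up to 0.0929). Klf10 did not pass without 1 of those 12, AAVshMCU day 7 replicate 1 (1.30, adjusted p = 0.0565), which left 1 gene. AAVMCU fibres against AAVshLuc fibres had 7 genes lower, all but Klf2 and Klf15, where 25.9% of all genes passed and 10.7% were lower, and this comparison too cannot be told apart from slide. Klf4 differed most, by -3.99 ± 0.55 (SE, adjusted p = 1.08e-05, and -1.89 with normexp). The Nr4a2 call (-1.74, adjusted p = 0.0170) was lost with normexp (-0.71, adjusted p = 0.0546) and did not hold by the second probe (-0.59, adjusted p = 0.134 over all probes).

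**Figure D3:**
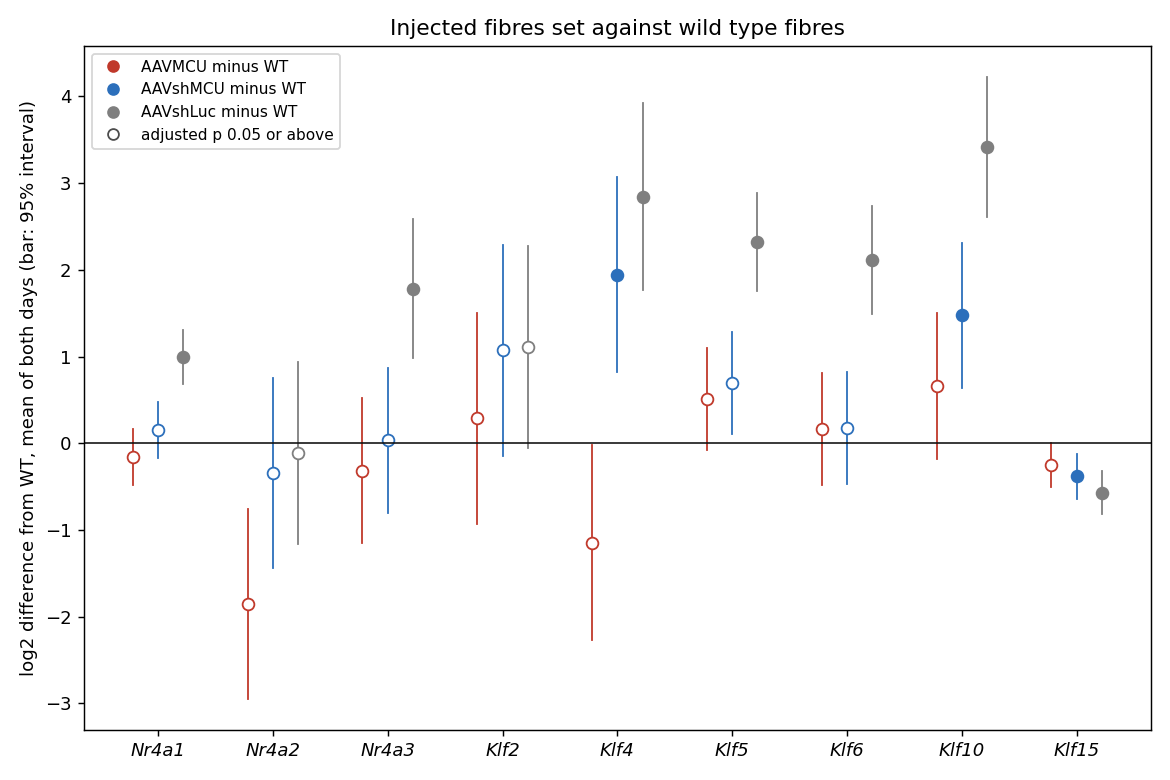
Log2 difference from WT fibres over the mean of both days (vertical axis) for each gene (horizontal axis) in AAVMCU, AAVshMCU and AAVshLuc fibres; points are differences, bars 95% intervals and open points an adjusted p of 0.05 or above. AAVshLuc points reach 3.42 for Klf10 and 2.84 for Klf4, while AAVshMCU points stay at 0.16 for Nr4a1, 0.03 for Nr4a3 and 0.18 for Klf6; AAVshMCU and AAVshLuc fibres were on other slides than WT fibres.

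Day 14 and day 7 fibres were also on different slides, and the genes called between them were Nr4a genes and Klf15. WT fibres were higher at day 14 in Nr4a1 (0.83, adjusted p = 0.0364) and Nr4a3 (2.65, adjusted p = 0.0109), where 2.41% of all genes passed and 1.28% were higher. The WT call of Nr4a3 held with each fibre left out and that of Nr4a1 was lost with 8 of 30. AAVMCU fibres were higher in Nr4a1 (1.02), Nr4a2 (2.94) and Nr4a3 (2.99), where 2.86% passed and 1.53% were higher. All 3 calls were lost with only the compared groups in the model (adjusted p = 0.159, 0.119 and 0.0943). AAVshMCU fibres were higher in Nr4a2 (2.79) and Klf15 (0.60), where 8.47% passed and 3.18% were higher, and both calls were lost with array weights (adjusted p = 0.0824 and 0.124) and with only the compared groups (adjusted p = 0.208 and 0.260). The Klf15 call was also lost with 6 of 30 single fibres left out. Neither Nr4a2 call held by the second probe, which gave 0.69 in AAVMCU fibres (adjusted p = 0.518 over all probes) and 0.99 in AAVshMCU fibres (adjusted p = 0.147), and the brighter probe was well above background in 1 of 3 AAVMCU fibres at day 7. With normexp the Nr4a2 differences were 1.09 in AAVMCU fibres (adjusted p = 0.129) and 1.53 in AAVshMCU fibres (adjusted p = 0.0151). Those of Nr4a3 were smaller too, 1.59 in WT fibres (adjusted p = 0.000569) and 1.45 in AAVMCU fibres (adjusted p = 0.00172), and both calls held. In AAVshLuc fibres 0 of 9 passed by limma, 0 at the unadjusted p, where 3.26% of all genes passed. In the WT muscles, which had no injection, Nr4a3 ran from -2.90 to -0.89 at day 7 and from 0.20 to 1.27 at day 14. Nr4a1, Nr4a2 and Klf6 were also wholly higher in WT fibres at day 14, and Klf10 was wholly lower. The share of all genes that lay apart in this way was not counted.

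The genes around these factors were counted from lists of known pathway genes. These lists were chosen with earlier results of these data known, so their counts beside all genes are descriptive only. Of 31 activity-induced early genes, 14 were lower in AAVshMCU than in AAVshLuc fibres over both days and 0 higher, with a median of -0.94, beside 6.11% lower of all genes and a median of 0.04. Among them were the growth gene Myc (-3.05 ± 0.54, SE, adjusted p = 0.000664), the CREB-induced kinase Sik1 (-1.50 ± 0.29, adjusted p = 0.00152) and the AP-1 subunit Fosl2 (-0.64 ± 0.14, adjusted p = 0.00278). Fosl1 was also called but was above background on 11 of 30 arrays, so its size is not given. The same list had 0 of 31 called by limma in AAVMCU against WT fibres over both days, where 1.13% of all genes passed. At an unadjusted p below 0.05 there were 6, and the share of all genes at that unadjusted p was not counted. In AAVshLuc against WT fibres over both days 20 were higher and 0 lower, where 10.3% of all genes were higher and 17.5% lower. That comparison cannot be told apart from slide.

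Glucocorticoid-induced genes had 8 of 14 lower and 0 higher in AAVshMCU than in AAVshLuc fibres over both days, with a median of -0.64, beside the same 6.11% lower of all genes. They included the ubiquitin ligase Trim63 (-1.43 ± 0.22, SE, adjusted p = 0.000159), the glutamine synthetase Glul (-0.82 ± 0.11, adjusted p = 5.84e-05), the transcription factor Zbtb16 (-0.69 ± 0.16, adjusted p = 0.00555) and the metallothionein Mt1 (-1.51 ± 0.41, adjusted p = 0.0152). Klf15, itself a glucocorticoid-induced gene, had 0.19 ± 0.12 (adjusted p = 0.329). Of the metabolic genes known as targets of Klf15, 6 of 13 were higher and 0 lower, with a median of 0.47, beside 8% higher of all genes. The 6 were led by the hormone-sensitive lipase Lipe (0.94 ± 0.14, adjusted p = 0.000105), the proline dehydrogenase Prodh (0.85 ± 0.20, adjusted p = 0.00585) and the tyrosine aminotransferase Tat (0.54 ± 0.15, adjusted p = 0.0152).

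Glucose and lipid genes known as Nr4a targets in muscle had 1 of 15 called, the glucose transporter Slc2a4 (0.32 ± 0.10, SE, adjusted p = 0.0322), which is also in the Klf15 list, and a median of 0.01. Of all genes 14.1% passed between AAVshMCU and AAVshLuc fibres over both days, 8% higher and 6.11% lower. Of the 7 other Klf genes that passed the filter, out of 11 listed, Klf7 was lower (-0.55 ± 0.15, adjusted p = 0.0193) and the median was -0.33. TGF-beta early genes had 2 of 6 measured ones lower, the corepressor Tgif1 (-1.74 ± 0.38, adjusted p = 0.00407) and the clock repressor Bhlhe40 (-0.68 ± 0.19, adjusted p = 0.0174). The partners and coregulators of nuclear receptors had 0 of 10 called by limma and 1 at an unadjusted p below 0.05, with a median of -0.03. In AAVMCU against WT fibres over both days each of these lists had 0 called by limma, where 1.13% of all genes passed. The unadjusted p was below 0.05 there for 3 glucocorticoid-induced genes, 2 Klf15 targets, 3 Nr4a targets, 2 other Klf genes, 1 TGF-beta gene and 1 nuclear receptor partner. Shares of all genes at the unadjusted p were not counted for either comparison.

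**Figure D4:**
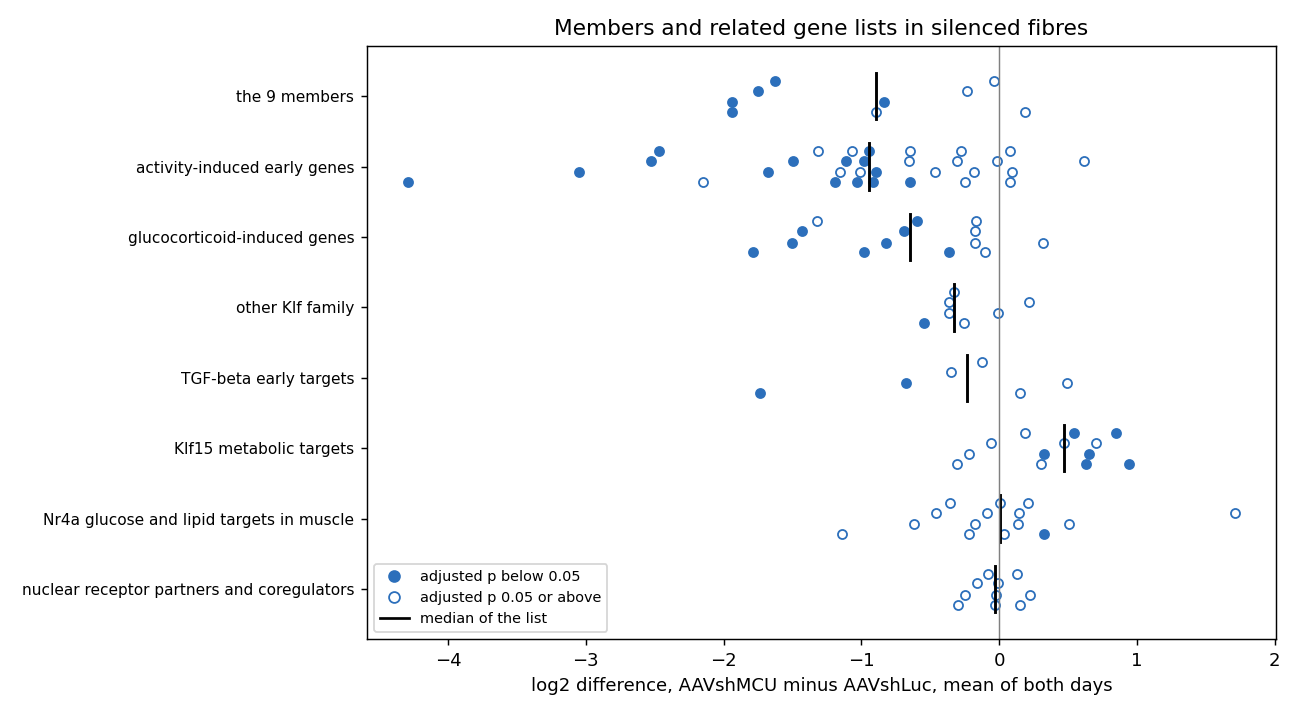
Log2 difference AAVshMCU minus AAVshLuc over the mean of both days (horizontal axis) for the 9 genes and for each related list (rows); each point is a gene, filled where the adjusted p is below 0.05, and vertical bars are list medians. The medians are -0.90 for the 9 genes, -0.94 for the early genes, -0.64 for the glucocorticoid-induced genes and 0.47 for the Klf15 targets; the lowest early gene is Fosl1, which was above background on 11 of 30 arrays.

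Markers of other cells were counted beside these genes, since Klf2 and Klf4 are also endothelial and macrophage genes. Summed endothelial levels (linear, relative to the 75th percentile, 8 markers) were 10.9 to 16.2 in AAVshMCU fibres and 14.4 to 17.3 in AAVshLuc fibres at day 7, and 12.8 to 14.3 in AAVshMCU and 16.3 to 47.3 in AAVshLuc fibres at day 14. Macrophage sums (7 markers) were 291 to 335 in AAVshMCU and 237 to 275 in AAVshLuc fibres at day 7, and 254 to 330 in AAVshMCU and 273 to 306 in AAVshLuc fibres at day 14. Itgam, at a median log2 level of 8.15 and followed by Csf1r at 4.55, made up most of the macrophage sum. Kdr, at 3.58 and followed by Thbd at -0.20, made up most of the typical endothelial sum, but Thbd reached 5.10. The sums thus mainly follow single probes. Of 4 endothelial markers that passed the filter Thbd was lower in AAVshMCU fibres (-3.24, adjusted p = 0.00201), and of 6 macrophage markers Cd68 was (-2.11, adjusted p = 0.00520). Of all genes 6.11% were lower over both days. Their part in the differences of the 9 genes was not tested. The random-primed labelling of amplified cDNA does not keep strand, so RNA of a gene and of an antisense partner cannot be told apart.

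The members differed in how much they varied. The SD between fibres within groups, pooled over the 8 groups, was 0.24 for Klf15 and 0.31 for Nr4a1, 0.57 for Klf5, 0.63 for Klf6, 0.82 for Nr4a3 and 0.83 for Klf10, and 1.08 for Nr4a2, 1.11 for Klf4 and 1.20 for Klf2. The last 3 are also the genes with the fewest arrays above background, 27, 25 and 26 of 30.

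Across the 30 fibres the closest pair was Nr4a1 and Nr4a3, with a Pearson r of 0.92. The r of their deviations from group means was 0.79, and without AAVMCU day 7 replicate 1 it was 0.58 over 29 fibres. Nr4a2 and Nr4a3 gave 0.75, 0.73 and 0.58 by the same measures. Nr4a1 and Nr4a2 gave 0.63, 0.59 and 0.33. Klf5 and Klf6 gave 0.87, 0.71 and 0.41, and Klf5 and Klf10 gave 0.82, 0.57 and 0.25. All 8 pairs with Klf15 had a negative r of deviations, from -0.44 to -0.10. Over all 36 pairs the median r of deviations was 0.36, and 0.05 without that fibre. Each r describes fibres that share slides, scaling and group effects.

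**Figure D5:**
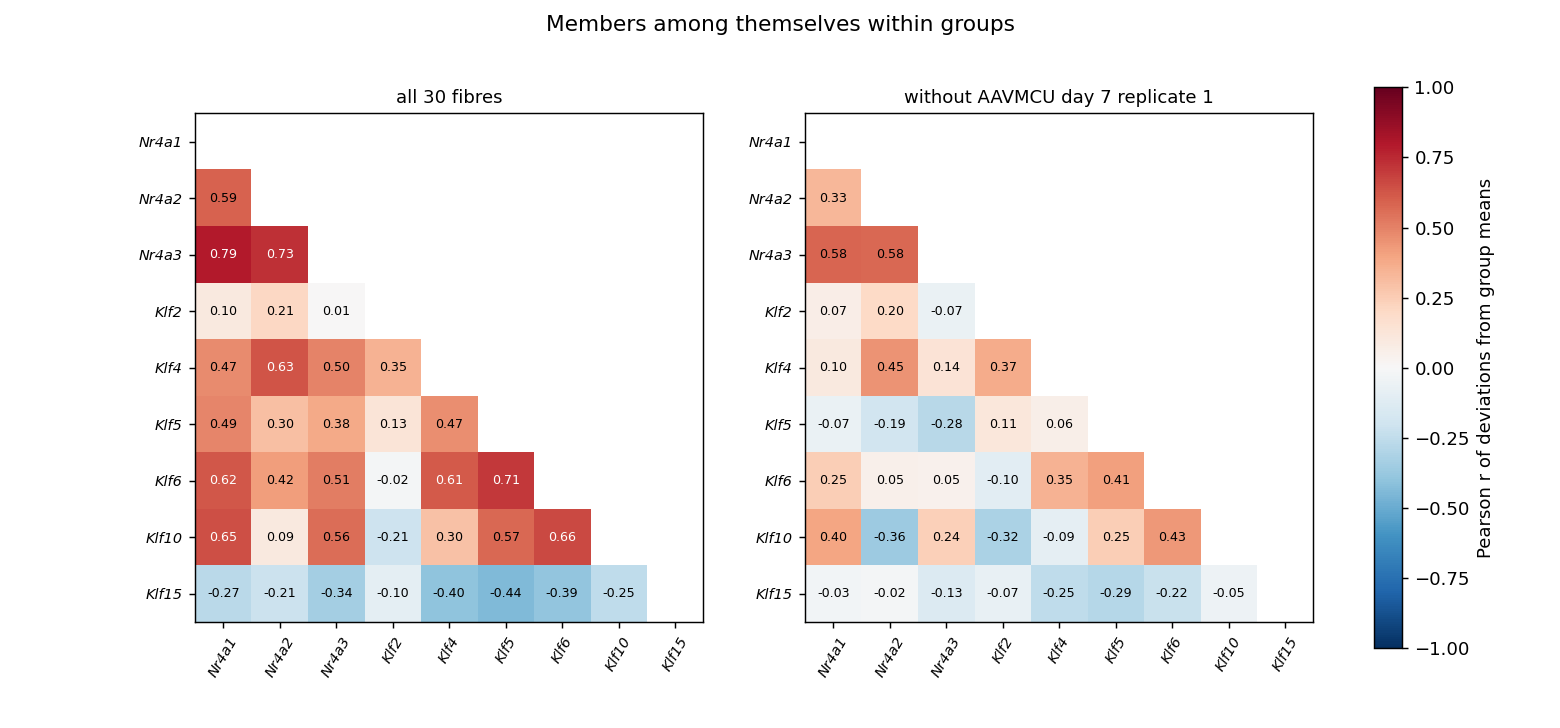
Pearson r between each pair of genes (both axes) of the fibres' deviations from their group means, over 30 fibres on the left and over 29 without AAVMCU day 7 replicate 1 on the right; colour runs from -1 to 1. On the right Nr4a1 with Nr4a3 and Nr4a2 with Nr4a3 have 0.58 each and Nr4a1 with Nr4a2 has 0.33, the Klf5 and Klf6 pair has 0.71 on the left and 0.41 on the right, and the Klf15 row is below 0 in both panels.

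The genes most like each member over the 30 fibres were sought among 13201 genes. Nr4a1 and Nr4a3 had the same nearest gene, the insulin receptor substrate Irs2, with a Pearson r of 0.93 and 0.91. Next for Nr4a1 came Slc38a2, an amino acid transporter, at 0.91. For Klf4 they were the small Maf protein Maff at 0.92 and the fatty acid receptor Ppard at 0.87. For Klf6 they were Ifrd1 and Slc38a2, both at 0.91, for Klf5 Eif1a at 0.92, and for Klf10 the phosphatase Dusp2 at 0.91. Klf15 was nearest to Arrdc2 and Klhl38, at 0.76 each. Nr4a2 and Klf2 had no gene above 0.71 and 0.66.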

How the data were processed

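Single-fibre RNA had been hybridised to 1-colour Agilent arrays, 1 array a fibre. The deposited values are spot intensities (processed signal, background-subtracted by Agilent Feature Extraction 10.7.3.1, per the file headers), with flags for outliers and for signal well above background; the authors' own normalization is not given in the sources used here. Each intensity was turned into log2, spots of a probe were averaged, outlier spots were left out and the array's 75th percentile was subtracted. Probes well above background on 3 or more arrays of a group were kept (33155), and the brightest probe stood for a gene (23335 genes). Names came from the files, updated through RefSeq accessions. Differences were fitted with limma 3.58.1 in R 4.3.3 on 8 group means over all 30 arrays (22 residual degrees of freedom, 2-sided, Benjamini-Hochberg over all genes, threshold 0.05); the model was tested on simulated data. Intervals are 95%.

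The 9 members and all gene lists were chosen with earlier results of these data known. The genes named beside the members were the leading ones of each list by moderated t, and the nearest 3 by correlation among genes above background on at least 20 arrays. Alternatives were normexp (offset 50), other scalings, filters and probe rules, array weights, slide row, only the compared groups, a replicate block and each fibre left out. Replicate numbers were not taken as pairs: over 14 comparisons of same-numbered fibres the correlation of deviations was -0.176 to 0.186, and 4 were above 0.1. The number of arrays limits the precision.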

Additional observations from a re-analysis of the deposited data

Results flagged for a closer look

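In 60 combinations of a probe and a group of 4 fibres, Dixon's test put 5 fibres far from the rest of their group, where chance gives about 3. Nr4a1 in AAVMCU day 14 replicate 3 was 5.06, against 4.48 to 4.57 in the other 3 fibres. Nr4a3 in WT day 14 replicate 2 was 0.20, against 1.10 to 1.27. The second Nr4a2 probe in AAVshLuc day 7 replicate 4 was 0.15, against -1.13 to -0.91. Klf4 in AAVshLuc day 14 replicate 1 was 0.98, against 0.80 to 0.82, a gap that is wide only beside a very narrow group. Klf4 in WT day 14 replicate 2 was -4.24 and not well above background, against -1.71 to -1.40. The change of an effect between days was tested for the 9 genes in both comparisons within slides, and 0 of 18 passed by limma.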

How the results depend on the processing

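Over both days the count of 5 lower genes in AAVshMCU against AAVshLuc fibres stayed 5 under each alternative and each left-out fibre, and all 5 genes kept their calls (215 of 215 checks). No result changed sign among those called. At day 7 the count ran from 3 to 6 with 1 fibre left out, and 210 of 215 checks kept the call. At day 14 the count of 1, here of calls in either direction, ran from 0 to 3 with 1 fibre left out. It was 2 with median scaling, where Nr4a1 was lower too (-0.83, adjusted p = 0.0393 by limma). It was also 2 with a percentile taken from probes seen in every fibre, where Klf15 was higher (0.63, adjusted p = 0.0333). Klf15 was called higher as well without AAVshMCU day 14 replicate 4 (0.64, adjusted p = 0.0436). The count was 0 with array weights, with only the compared groups and with the replicate block. The change between days ran from 0 to 1, the 1 being Klf5, and was 1, Klf4, with normexp. For AAVMCU against WT fibres the count of 0 was 1, Nr4a2, with array weights at day 7 and over both days; with 1 fibre left out it ran from 0 to 1 at day 7 and over both days and from 0 to 0 at day 14. AAVshLuc against WT ran from 7 to 8, AAVshMCU against WT from 1 to 4 and AAVMCU against AAVshLuc from 6 to 8. The cause was not tested. The replicate block changed no call of a member within slides but that of Klf6 at day 14.

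Over all genes the calls for AAVshMCU against AAVshLuc at day 7 numbered 3144, against 1818 with array weights and 851 with only the compared groups, and at day 14 807, against 130 with only the compared groups. For AAVMCU against WT over both days they numbered 263, against 1298 with array weights, 510 with normexp and 142 with the replicate block. Scaling moved the share of higher calls in AAVshMCU against AAVshLuc over both days, 56.7% as reported, to 25.1% with median scaling and 74.5% with probes detected on all arrays, as the median of all genes went to -0.08 and 0.11; for AAVshLuc against WT the share was 36.9%, 66.9% and 23.9% and the median -0.04, 0.12 and -0.12. Nr4a2, Klf2 and Klf4 were dim on 3 to 5 arrays, and Nr4a3 was above background on 28 of 30, which limits their values.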
